A study of Mus musculus with 15 samples.

Results

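The Zfp genes are mouse genes named for zinc finger proteins. Members were all protein_coding transcripts in the table whose GENCODE M21 gene name is Zfp followed by a digit, and 149 of 10370 transcripts, from 135 genes, met this rule. GENCODE M21 annotates 394 such genes with a protein_coding transcript, so 34.3% of them were listed in the cortex table, whose least abundant transcript averaged 108 normalized counts. Of the 135 genes, 122 had a single listed protein_coding transcript and 13 had several. The name marks a nomenclature, not a single family, and zinc finger genes with other names were not members.

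RNA came from dissected cortex of male C57BL/6 mice (C57Bl/6J in the study's methods), labelled as 12 weeks old. The HF-HI group (8 libraries) was studied 1 month after high-frequency head impact, a closed-skull model in which mice under isoflurane received repeated impacts on successive days. The Sham group (7 libraries) consisted of mice that were anesthetized and handled likewise and never struck. Bulk tissue was sequenced, so fewer cells of a type and less RNA per cell cannot be told apart, and the separate samples of a group are taken as separate mice only as far as their labels say.

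A zinc finger is a short loop of protein folded around a zinc ion. In the C2H2 type a pair of cysteines and a pair of histidines hold the zinc, and an array of such fingers, joined by short conserved linkers, reads DNA. Many C2H2 proteins carry a KRAB domain, which recruits TRIM28 (KAP1) and through it the methyltransferase SETDB1, HP1 proteins and histone deacetylases, and these silence retroelements and imprinted loci. The CCCH type is another, and some of its proteins, Zfp36l2 among them, bind AU-rich elements of mRNA. KRAB zinc finger genes lie in clusters of young, similar copies, and reads from such copies are hard to assign.

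The coding sequences placed the members in these classes. A C2H2 pattern with a KRAB pattern was found in 58 transcripts of 57 genes, with a median of 12 fingers. Another 58 transcripts of 52 genes had at least 5 C2H2 fingers and no KRAB match, up to 37 fingers in Zfp142. A further 28 transcripts of 24 genes had 1 to 4 fingers, and 1 transcript, Zfp36l2, had the CCCH pattern. The other 4, among them Zfp365, Zfp451 and Zfp330, matched neither pattern. The KRAB pattern was strict, and Zfp445, a known KRAB protein, was not matched by it. The classes without a KRAB match can therefore hold other KRAB proteins. By place, chromosome 7 held 22 of the genes, chromosome 17 held 18 and chromosome 13 held 13.

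The repeat that these genes share is seen in the DNA that codes for a finger and its linker. Shown here is, for each of the 7 transcripts that differed between the groups at an unadjusted p under 0.05 and held at least 5 copies of the strict repeat, the copy nearest to the most common base at each of the 84 positions. The sequences are from GENCODE M21 transcripts (GRCm38, mm10), 5′ to 3′ on the coding strand, each within a single coding exon. The capitals mark the codons of the 2 cysteines and 2 histidines, and the first 5 codons after the last capitals code for the linker.
Zfp251, chr15:76853947-76854030, minus strand: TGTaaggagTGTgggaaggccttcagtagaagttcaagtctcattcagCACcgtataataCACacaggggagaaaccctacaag
Zfp788, chr7:41649499-41649582, plus strand: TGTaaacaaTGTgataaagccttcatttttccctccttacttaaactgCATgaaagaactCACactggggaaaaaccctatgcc
Zfp386, chr12:116060224-116060307, plus strand: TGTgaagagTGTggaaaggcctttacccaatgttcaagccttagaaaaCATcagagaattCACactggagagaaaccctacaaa
Zfp738, chr13:67670335-67670418, minus strand: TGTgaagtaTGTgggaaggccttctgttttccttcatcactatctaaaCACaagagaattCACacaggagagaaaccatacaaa
Zfp354c, chr11:50814834-50814917, minus strand: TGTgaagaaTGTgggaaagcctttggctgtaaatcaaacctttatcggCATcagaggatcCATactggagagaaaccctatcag
Zfp26, chr9:20437308-20437391, minus strand: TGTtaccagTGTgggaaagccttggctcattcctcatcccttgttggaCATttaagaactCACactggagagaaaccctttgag
Zfp617, chr8:71933004-71933087, plus strand: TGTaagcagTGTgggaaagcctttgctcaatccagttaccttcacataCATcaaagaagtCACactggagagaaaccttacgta

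Across all 508 such repeats, from 85 member genes, the most common base stood at 89.7% on average in the cysteine and histidine codons and at 84.9% in the linker codons. It stood at 49.5% in the 7 codons before the first histidine, which hold the residues that contact DNA. The search for the repeat required the cysteines, the histidines and the linker residues, so only synonymous bases could differ there. The contrast with the 7 codons, which the search left free, is therefore largely set by the search. A pair of repeats from different genes had a median of 50 identical bases of 84, and a pair from the same gene 61. At the scale of reads the members were more distinct, since 121 of 149 transcripts shared no window of 100 bases with another annotated gene. The shared part exceeded 20% of windows in 5 transcripts, namely Zfp966 (78.7%), Zfp729b (39.8%), Zfp617 (34.2%, with Gm18180), Zfp955a (26.5%, with Zfp955b) and Zfp932 (22.1%). The values of these 5 are uncertain, because the counting could divide their reads between genes.

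Zfp transcripts were of low abundance as a class. Normalized counts are reads divided by the library's size factor. Their median over the members was 216, against 329 over all listed protein_coding transcripts. Per kilobase of transcript the median was 52.6 for members and 96.0 for all protein_coding transcripts, and 129 of the 149 lay below the latter. The KRAB class had a median level of 48.5 per kilobase and reached 110.1 at most. The class with 5 or more fingers and no KRAB match had a median of 59.0, and that with 1 to 4 fingers one of 67.2.

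Summed over its listed protein_coding transcripts, Zfp365 had the highest level per kilobase of all member genes. Zfp365, also named DBZ, binds the neuronal scaffold DISC1 and is known from brain. Its level per kilobase was 892 to 1004 normalized counts in Sham (median 932). In HF-HI it was 923 to 1054 (median 970). No other member gene overlapped this range.

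Zfp644, a partner of the H3K9 methyltransferases G9a and GLP, came next with 314 per kilobase ± 13.3 (SD over the 15 libraries). It was followed by Zfp106, an RNA-binding protein needed by motor neurons, at 294 ± 12.0, and by Zfp91, an E3 ubiquitin ligase, at 290 ± 17.9. Zfp706, which codes for a short protein, stood at 279 ± 12.2. These 4 neighbours in the order differed by about their own spread, so their order is not firm. The 3 lowest were Zfp738 at 22.2 ± 3.19, Zfp729a at 21.2 ± 1.90 and Zfp945 at 20.04 ± 2.81, and they overlapped across libraries.

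**Figure D1:**
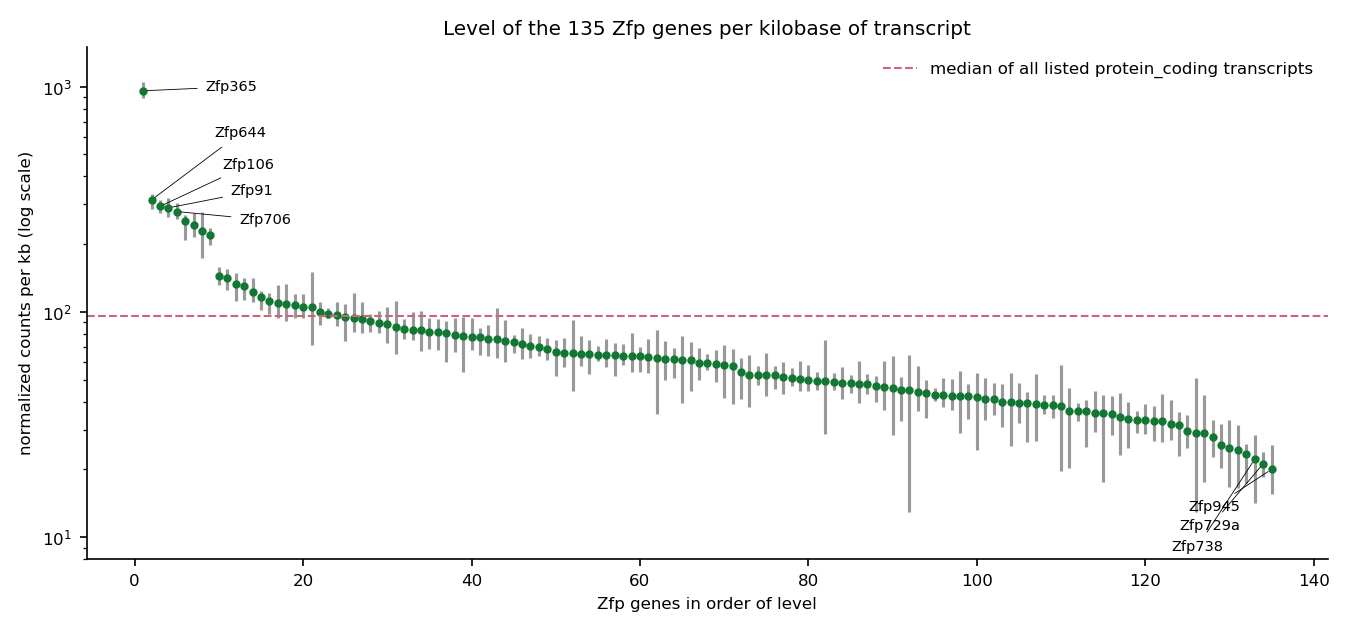
Level of each of the 135 Zfp genes in normalized counts per kilobase (vertical, log scale) in order of level (horizontal). Points are means over the 15 libraries, bars run from the lowest to the highest library, and the dashed line is the median of all listed protein_coding transcripts (96.0); Zfp365 stands alone at 959 and most genes lie below the line.

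Depth differed between the groups. Sham libraries held 5798810 to 10582858 reads in listed transcripts, and HF-HI libraries 3496103 to 8666307. The median member transcript held 110 reads in the shallowest library, HF-HI replicate 4, and 326 in Sham replicate 5, for which counting alone gives an error of 9.53% and 5.54%. Cortical neuron markers were all listed (8 of 8 genes), with a summed level of 42155 to 43500 in Sham and 42293 to 47514 in HF-HI. Of their 15 transcripts, 2 were higher at an unadjusted p under 0.05 (limma), or 13.3% against 8.83% of all transcripts called. Ttr, a choroid plexus marker, was at least 6589 normalized counts in 2 Sham and 2 HF-HI libraries and at most 176 in the others. Striatal markers (5 of 6 genes listed) summed to 4786 to 7376 in Sham and 3338 to 6726 in HF-HI, and 2 of their 12 transcripts (16.7%) were lower. A single transcript each of the astrocyte markers (of 7 transcripts) and microglia markers (of 4) was lower, and none of the inhibitory neuron, oligodendrocyte or endothelial markers was called. The part of striatal or choroid plexus tissue in the Zfp results was not tested, beyond counts given without the 4 libraries with high Ttr.

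The comparison of HF-HI with Sham asked whether Zfp expression differed 1 month after the impacts. At an unadjusted p under 0.05 (limma on the deposited values), 16 of 149 Zfp transcripts differed, 8 higher and 8 lower in HF-HI. That is 10.7%, against 8.83% of all 10370 transcripts (4.94% higher and 3.9% lower), so the members' share lay near that of the whole table. None passed the study's adjusted threshold of 0.1, in limma on the deposited values or in voom on the recovered reads, and neither did any other transcript in the table. The study itself used another test, DESeq2 on counts, and reported differentially expressed genes at 1 month. The smallest adjusted p among members was 0.351.

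The median difference over the 149 transcripts was 0.0015 on the deposited variance-stabilized (VSD) log2 scale, beside -0.0013 over all transcripts, and 80 members had a positive difference and 69 a negative one. The share of listed reads that fell in Zfp transcripts was 0.731% ± 0.0133 (SD) in Sham and 0.744% ± 0.00407 in HF-HI, with ranges of 0.710% to 0.746% and 0.740% to 0.753% that overlapped. The share exceeded the Sham median in 8 of 8 HF-HI libraries, and 5 of 7 Sham libraries lay below the lowest HF-HI library. The difference in share was not tested. By log2 ratio of the group means of normalized counts, members lay between -0.47 and 0.61, and none exceeded 1 in size. The middle 90% of members lay between -0.21 and 0.19, against -0.26 and 0.28 for all transcripts. In no Zfp transcript were the groups fully apart, which was so for 0.154% of all transcripts.

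**Figure D2:**
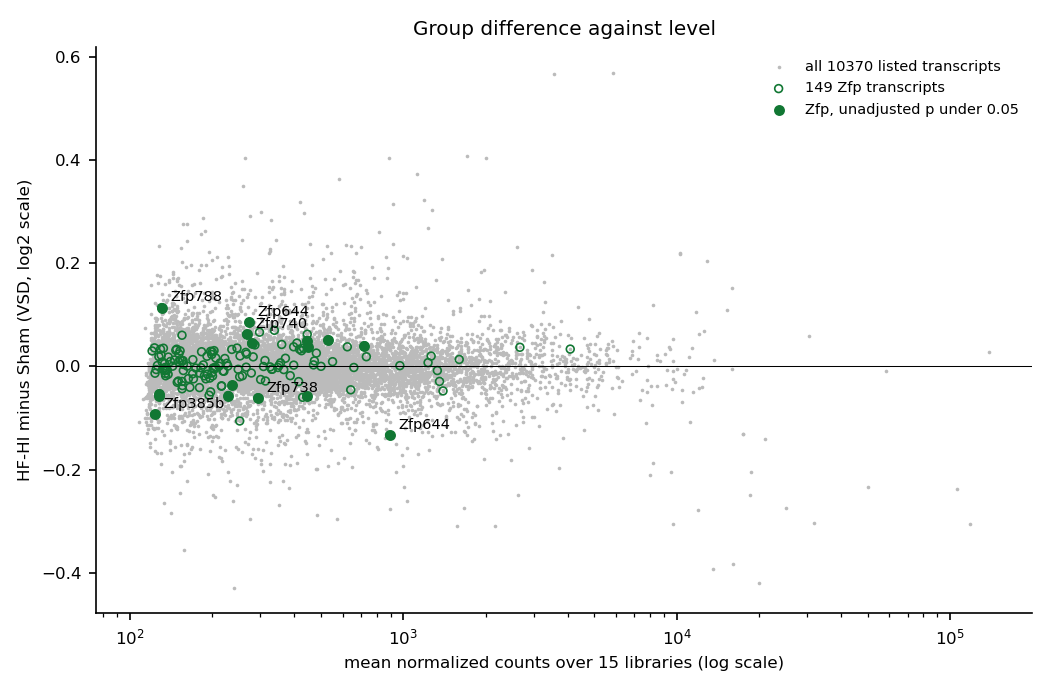
HF-HI minus Sham on the VSD log2 scale (vertical) against mean normalized counts over 15 libraries (horizontal, log scale), for all 10370 transcripts in grey and the 149 Zfp transcripts in green. Filled points are the 16 Zfp transcripts at an unadjusted p under 0.05; members lie within the cloud of all transcripts, on both sides of 0.

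By class, 8 of 58 KRAB transcripts were called (3 higher, 5 lower), 5 of 58 with 5 or more fingers and no KRAB match (3 higher, 2 lower), and 3 of 28 with 1 to 4 fingers (2 higher, 1 lower). These are 13.8%, 8.62% and 10.7%, against 8.83% of all transcripts. Their medians of difference on the VSD scale were -0.0023, 0.0074 and 0.0034, where the spread between libraries of the members' median was 0.0057. The difference between classes was not tested. Zfp445, a known KRAB protein, is among the 5 calls without a KRAB match, so that class is not free of KRAB proteins.

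Zfp740, a small protein with 2 C2H2 fingers encoded on chromosome 15 (102203648 to 102215605, plus strand), had the smallest p of the transcripts higher in HF-HI. Its normalized counts were 227 to 291 in Sham (median 237) and 262 to 322 in HF-HI (median 285). The Sham median was exceeded in 8 of 8 HF-HI libraries, and the ranges overlapped through Sham replicate 7, the highest Sham library. The log2 ratio was 0.24, with an unadjusted p of 0.0031 and an adjusted p of 0.351 (limma). Summed with a listed retained-intron transcript of the gene, Zfp740 had a log2 difference of 0.12 ± 0.074 (SE, voom, unadjusted p = 0.127).

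Zfp651 (7 fingers, chromosome 9, 121760033 to 121771742) had 476 to 525 normalized counts in Sham (median 505) and 497 to 635 in HF-HI (median 548), a log2 ratio of 0.15. Zfp251, a KRAB protein with 11 fingers, had 378 to 449.7 in Sham (median 422) and 419 to 530.4 in HF-HI (median 462), also a log2 ratio of 0.15. In both, 7 of 8 HF-HI libraries exceeded the Sham median. The limma p was 0.0132 for Zfp651 and 0.0136 for Zfp251, both with an adjusted p of 0.4485. With the log2 size factor as a covariate both lost the call, with p of 0.129 and 0.110.

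Zfp445 is one of the KRAB zinc finger proteins that maintain genomic imprints, together with ZFP57. It had 638 to 743 normalized counts in Sham (median 699.5) and 701 to 811 in HF-HI (median 735). The Sham median was exceeded in 8 of 8 HF-HI libraries, and the log2 ratio was 0.10 (limma, unadjusted p = 0.0242, adjusted p = 0.504). Without Sham replicate 4 p was 0.0592, and with the log2 size factor as a covariate it was 0.2495. Zfp57 was not among the listed transcripts.

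Zfp788, a KRAB protein with 23 fingers, had 2 listed transcripts. In ENSMUST00000045720 the normalized counts were 55.9 to 148 in Sham (median 106) and 70.8 to 214 in HF-HI (median 161), a log2 ratio of 0.61 (limma, unadjusted p = 0.0281, adjusted p = 0.514). The other, ENSMUST00000098508, averaged 211 in Sham and 185 in HF-HI, the opposite way, and shared 77.5% of its 100-base windows with the first. Summed, the gene had a log2 difference of 0.14 ± 0.076 (SE, voom, unadjusted p = 0.0775). The first transcript lost its call on leaving out any of Sham replicates 3, 4 and 5 and HF-HI replicates 3 and 5, with p up to 0.0656.

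Among the transcripts that were lower in HF-HI, Zfp518a had the smallest p. This protein is linked to the H3K9 methyltransferase G9a. Its normalized counts were 225 to 273 in Sham (median 246) and 169.7 to 245 in HF-HI (median 213), with 8 of 8 HF-HI libraries under the Sham median. The log2 ratio was -0.23 (limma, unadjusted p = 0.0069, adjusted p = 0.402). With the log2 size factor as a covariate, p was 0.0252.

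Zfp385b, a protein of the p53-linked ZFP385 family, had 125 to 176 normalized counts in Sham (median 137) and 35.4 to 146 in HF-HI (median 106.5). HF-HI replicate 2 was by far the lowest, and 3 of 8 HF-HI libraries were above the Sham median. The log2 ratio was -0.47, the most negative of all members (limma, unadjusted p = 0.0263, adjusted p = 0.514). With the log2 size factor as a covariate p was 0.463, and without Sham replicate 7 it was 0.0555.

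Zfp386 had 120.1 to 181 normalized counts in Sham (median 141) and 87.4 to 146 in HF-HI (median 113), a log2 ratio of -0.28. Zfp738, whose annotated transcript is 13215 bases long, had 274 to 375 in Sham (median 315) and 188 to 321 in HF-HI (median 282), a log2 ratio of -0.22. In both KRAB genes 7 of 8 HF-HI libraries were below the Sham median. The limma p was 0.0335 and 0.0349, each with an adjusted p of 0.530 or 0.533. Each lost its call in 6 of 15 fits that left out a library, with p up to 0.0820. For Zfp386 these libraries were Sham replicates 1 and 5 and HF-HI replicates 1, 2, 3 and 5, and for Zfp738 Sham replicates 1, 3 and 7 and HF-HI replicates 2, 4 and 6. With the log2 size factor as a covariate Zfp386 had a p of 0.0475 and Zfp738 one of 0.211.

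Zfp644 had 3 listed transcripts, of which 2 were called in opposite directions. ENSMUST00000112696 had 882 to 1110.5 normalized counts in Sham (median 954) and 477 to 1076 in HF-HI (median 816), a log2 ratio of -0.28 (limma, unadjusted p = 0.0352, adjusted p = 0.534). ENSMUST00000112698 had 133 to 295 in Sham (median 258) and 247 to 392 in HF-HI (median 301), a log2 ratio of 0.31 (limma, unadjusted p = 0.0325, adjusted p = 0.525). The first shared 96.6% of its 100-base windows with the second. Summed over the 3 transcripts the gene stood at 1826 ± 58.0 (SD) in Sham and 1757 ± 81.2 in HF-HI, a log2 difference of -0.055 ± 0.032 (SE, voom, unadjusted p = 0.101). Without HF-HI replicate 2, the lowest library for the one and the highest for the other, p was 0.0539 for ENSMUST00000112696 and 0.0660 for ENSMUST00000112698. The first also lost its call on leaving out any of Sham replicates 1, 2 and 5 and HF-HI replicates 5 and 6. The second also did so for Sham replicates 1 and 4 and HF-HI replicates 4 and 5. With the log2 size factor as a covariate p was 0.331 and 0.2995.

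The other 5 called transcripts are named here after their values were seen. Zfp354c and Zfp367 were higher, with log2 ratios of 0.11 and 0.17. Zfp26, Zfp110 and Zfp617 were lower, with log2 ratios of -0.17, -0.29 and -0.15. Their limma p lay between 0.0350 and 0.0471, and of the 15 fits that left out a library the call held in 6 for Zfp354c, 7 for Zfp367 and 8 for Zfp26. Zfp110 codes for NRIF, which binds the neurotrophin receptor p75 and takes part in its death signal. Its normalized counts were 127 to 152 in Sham (median 141) and 63.1 to 154 in HF-HI (median 115), and its call held in 4 of the 15 fits. Zfp617, which shares windows with Gm18180 as given above, also held it in 4.

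**Figure D3:**
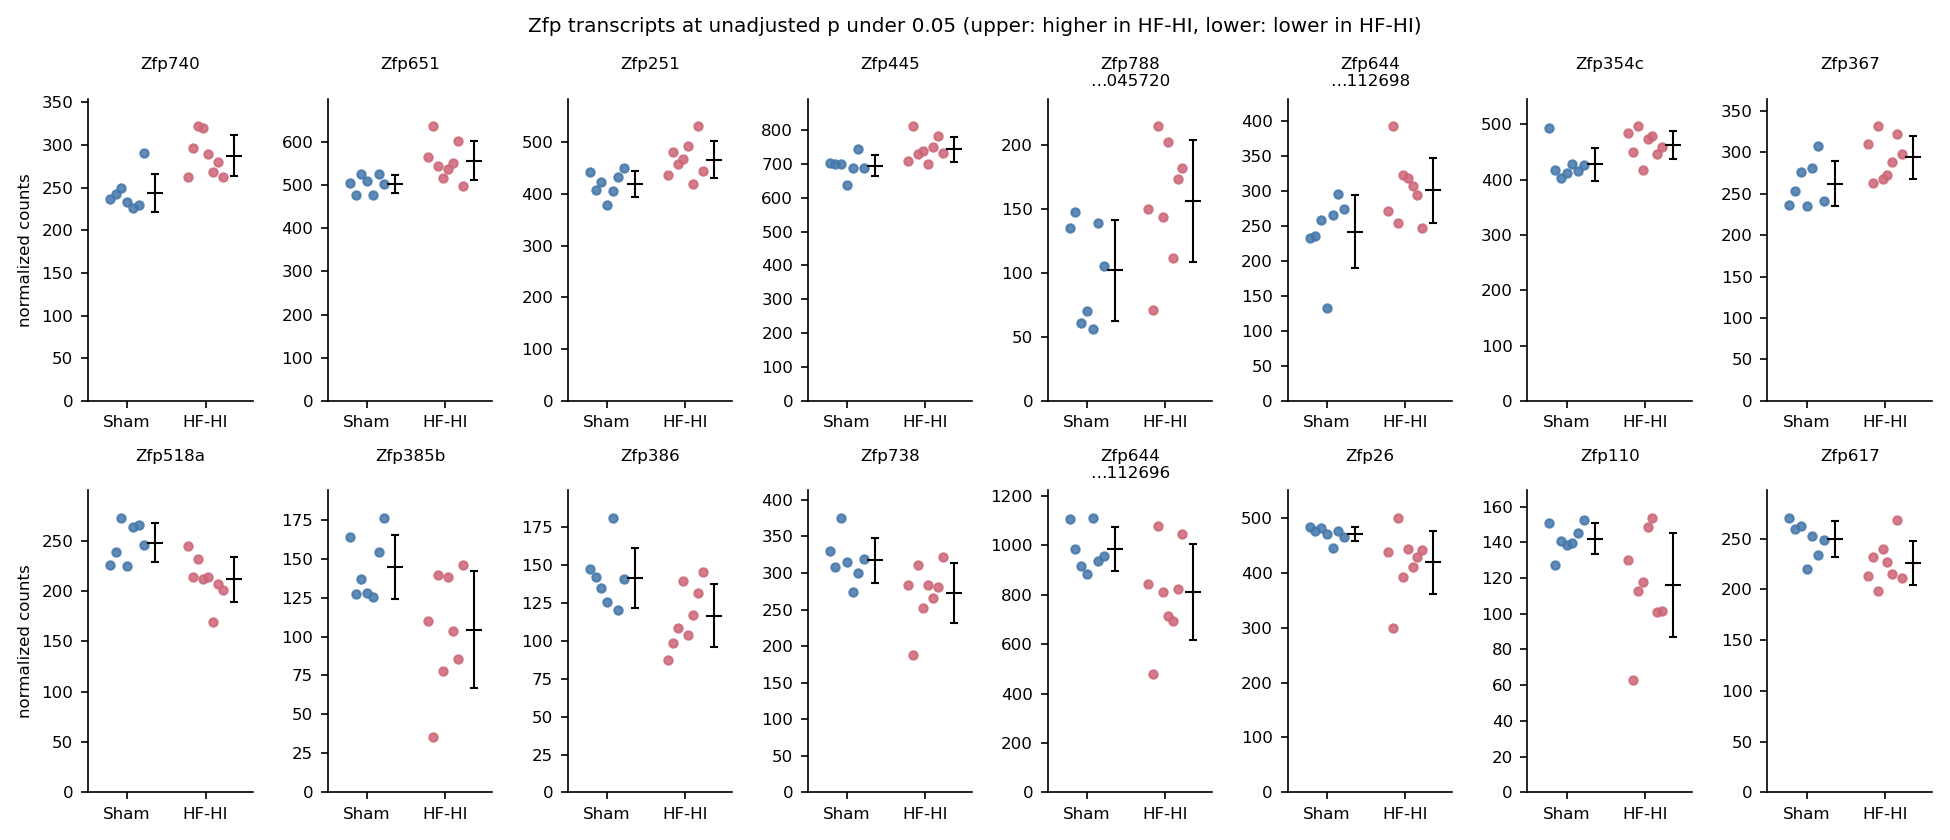
Normalized counts (vertical, from 0) in each Sham and HF-HI library for the 16 Zfp transcripts at an unadjusted p under 0.05, the 8 higher in HF-HI above and the 8 lower below; black bars are the mean ± SD. Groups overlap in every panel, and the lowest HF-HI point of Zfp385b, Zfp738, the lower Zfp644 transcript, Zfp26 and Zfp110 is HF-HI replicate 2.

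Of the 16 called transcripts, 4 kept an unadjusted p under 0.05 in all 15 fits that left out a library, namely Zfp740, Zfp518a, Zfp651 and Zfp251. With the log2 size factor as a covariate, 6 of the 16 remained called (Zfp740, Zfp518a, Zfp788, Zfp386, Zfp354c and Zfp617) and 11 members were called in all, or 7.38%, against 5.14% of all transcripts. Without the 4 libraries of high Ttr, 6 of the 16 remained and 13 members were called (8.72%, against 6.53%). Without HF-HI replicate 2, 10 remained and 15 were called (10.1%, against 8.69%). Among the 9 libraries with a size factor above 1, 3 remained and 7 were called (4.70%, against 5.22%).

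Summing the recovered reads over the listed transcripts of a gene removes the division of reads between transcripts of that gene. By this measure 16 of 135 Zfp genes were called (voom, unadjusted p under 0.05), 10 higher and 6 lower, or 11.9% against 9.35% of all genes (5.1% higher and 4.26% lower), and none passed an adjusted p of 0.1. Of these, 11 also had a called transcript. Zfp664 was called only here. Its protein_coding transcript averaged 461 in Sham and 400.3 in HF-HI, while the sum with a processed transcript averaged 584 ± 36.8 (SD) and 639.9 ± 35.4, a log2 difference of 0.12 ± 0.046 (SE, unadjusted p = 0.0173). The others called only as genes were Zfp598, Zfp369, Zfp874b and Zfp948, all higher and each with a single listed transcript, with limma p from 0.0507 to 0.0845 on the VSD scale. For these genes no transcripts were summed, and the measures differ in the test and scale, voom on reads against limma on VSD values.

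Functional groups of members were read from lists written from general knowledge, with earlier results of these data known. In the RNA-binding and ribosome-linked group, 8 transcripts of 7 genes were members and only Zfp385b was called (12.5%, against 8.83% of all transcripts). The other 7 had log2 ratios from -0.056 to 0.13. They include Zfp106, Zfp638, the spindle and splicing factor Zfp207, the ribosome assembly factor Zfp622 and Zfp598, the ubiquitin ligase that senses collided ribosomes. Zfp598 averaged 193 in Sham and 212 in HF-HI by normalized counts, with an unadjusted limma p of 0.0614.

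Of the ubiquitin- or SUMO-linked members none of 4 transcripts was called, and these were Zfp91, the SUMO ligase Zfp451, Zfp746 (PARIS, a parkin substrate) and again Zfp598. Of all transcripts 8.83% were called, so sets as small as these 4 and the 13 neural transcripts can hold no call. None of the 13 transcripts of 10 neural members was called, with log2 ratios from -0.15 to 0.20. These include Zfp365, Zfp24 (needed for myelination), Zfp335 (neurogenesis), Zfp462 and Zfp804a. Zfp24 averaged 428 ± 34.9 in Sham and 402 ± 33.6 in HF-HI. The only listed CCCH factor, Zfp36l2, which binds AU-rich mRNA for decay, had 146 to 251 normalized counts in Sham and 173 to 239 in HF-HI. Zfp36 and Zfp36l1 were not among the listed transcripts.

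Of the chromatin-partner members 4 of 12 transcripts of 9 genes were called, 2 in each direction (33.3%, against 8.83% of all transcripts). These were Zfp445, Zfp518a and the 2 Zfp644 transcripts described above. The Zfp644 transcripts share most of their sequence and were called in opposite directions. Their gene was not called when its reads were summed (voom, unadjusted p = 0.1005), yet it gives 2 of the 4 calls in this share. Whether the counting divided reads between these transcripts was not tested. The uncalled 8, which include Zfp532, Zfp592 and Zfp687 of the ZMYND8 complex, the Chd4 activator Zfp410 and Zfp609, had log2 ratios from -0.032 to 0.14.

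The partners through which KRAB proteins act were taken from 38 names, where Fam208a and Fam208b also stand as Tasor and Tasor2. Of these partners 27 genes were present, with 40 transcripts. Of these transcripts 4 were called, beside the 8.83% of all transcripts given above, 3 lower, among them Sumo2 and Hdac2, and 1 transcript of Sumo3 higher. Sumo2, a SUMO protein that modifies TRIM28, had 952 to 1235 normalized counts in Sham (median 1190.2) and 787 to 1142 in HF-HI (median 986), a log2 ratio of -0.21 (limma, unadjusted p = 0.0194, adjusted p = 0.476). Its p was 0.358 with the log2 size factor as a covariate and 0.0690 in the replicate block, and its call held in all 15 fits that left out a library. Hdac2, a histone deacetylase, had a log2 ratio of -0.13, and in the replicate block its p was 0.112. Its call held in 7 of those 15 fits. The Sumo3 transcript had a log2 ratio of 0.27, and in the replicate block its p was 0.0804. The call of this transcript also held in 7 of the 15 fits. Sumo3 summed over its transcripts had a log2 difference of 0.019 (voom, unadjusted p = 0.762). Trim28 itself averaged 923 in Sham and 935 in HF-HI (unadjusted p = 0.688). Without the 4 libraries of high Ttr only Hdac2 of the 40 was called, beside 6.53% of all transcripts. Summed per gene, 6 of the 27 genes were called, 1 higher and 5 lower (voom, smallest adjusted p 0.2795), or 22.2% against 9.35% of all genes.

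Covariation is given as a description, since all genes share the same 15 libraries, with their depth and dissection. Over all 9045 pairs of the 135 genes, the median Pearson's r of VSD values was 0.0153, with 90% of pairs between -0.452 and 0.485. Over all pairs of genes with listed protein_coding transcripts it was -0.00049, with 90% between -0.485 and 0.487. Pairs of KRAB genes had a median of 0.0280.

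For the 79 pairs of Zfp genes with starts within 500 kb the median r was 0.137 and 67.1% were above 0, against 0.0126 for 8359 pairs on different chromosomes. For all genes with listed protein_coding transcripts within the same distance it was 0.0313. Without HF-HI replicate 2 the Zfp neighbours had a median of 0.0913. These pairs lie mostly on 3 chromosomes, with 27 pairs on chromosome 17, 22 on chromosome 7 and 21 on chromosome 13. Many of them share a gene, so the pairs are not independent. Neighbours could also be opposed: Zfp955a and Zfp955b, whose transcripts share sequence as given above, had an r of -0.671.

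The highest correlations were 0.904 for Zfp26 with Zfp738, 0.904 for Zfp26 with Zfp385b and 0.870 for Zfp532 with Zfp623. Without HF-HI replicate 2, in which Zfp26, Zfp738 and Zfp385b were all at their lowest, the first pair had 0.775, the second 0.762 and the third 0.871. The lowest were -0.877 for Zfp770 with Zfp788, -0.805 for Zfp518a with Zfp622 and -0.805 for Zfp629 with Zfp770. These pairs lie on different chromosomes and were picked as extremes of 9045 pairs.

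Transcripts of the same gene behaved otherwise. The 15 pairs of listed transcripts from the 13 genes had a median r of -0.675, and 14 of 15 were below 0. For all 2803 pairs of protein_coding transcripts from the same gene in the table, the median was -0.364. Over the 27 transcripts of these genes the median coefficient of variation was 19.5%, against 9.89% for the 122 transcripts with no listed partner, while the sums per gene had 6.01%.

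Zfp260 showed the pattern most clearly, with an r of -0.962. ENSMUST00000108200 had 6.88 normalized counts in HF-HI replicate 3 and 48.9 in Sham replicate 2, and 179.7 to 383 in the other 13 libraries. ENSMUST00000050735 had its 2 highest values, 581 and 507, in those same libraries. The sum stayed between 506 and 594, and 97.2% of the windows of the first are in the second. Zfp292 had an r of -0.936, and its second transcript ranged from 97.9 to 429 while the sum ranged from 934 to 1035. The pair above 0 was ENSMUST00000045466 with ENSMUST00000112698 of Zfp644, at 0.284. In Zfp866 the transcripts share only 7.18% to 8.76% of their windows, and r was -0.0819.

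**Figure D4:**
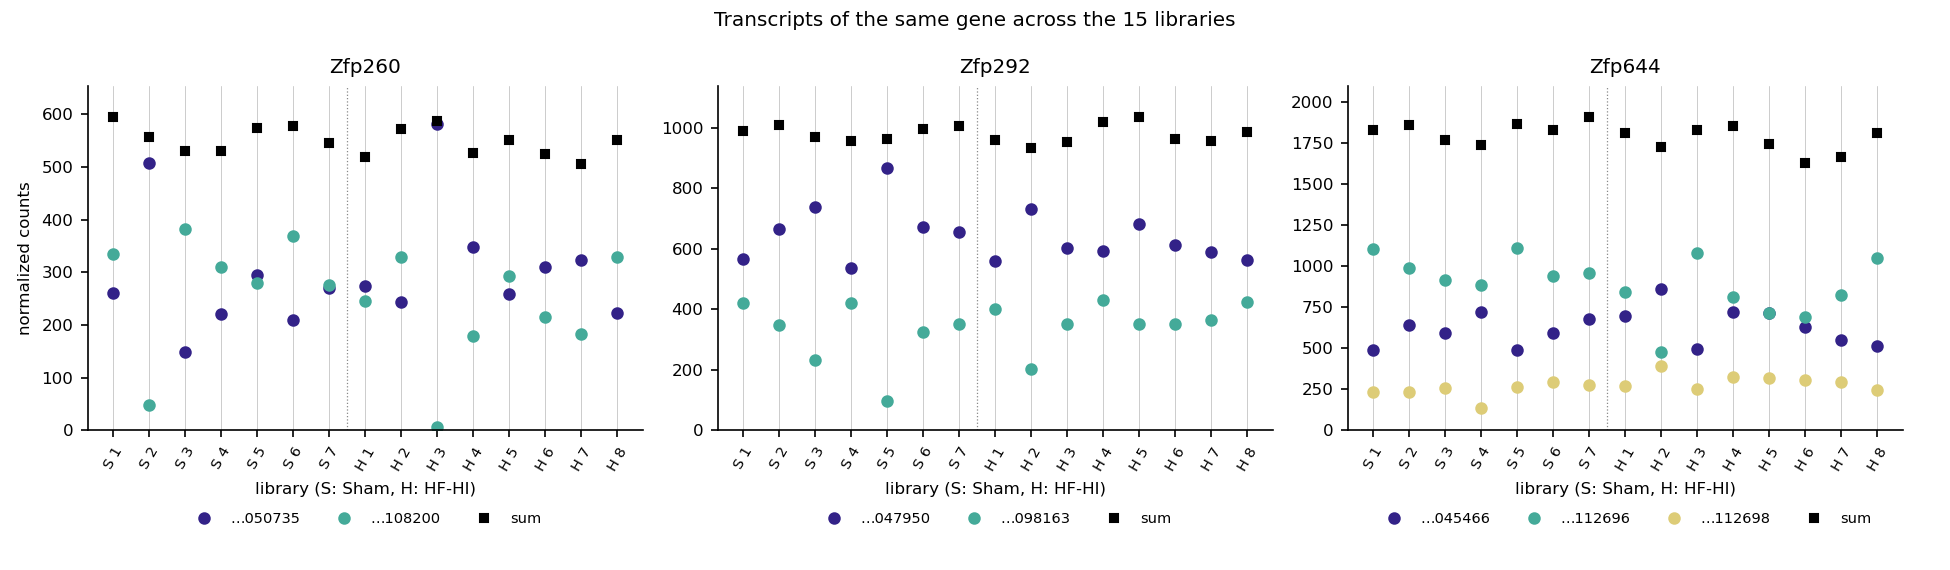
Normalized counts (vertical, from 0) of each listed protein_coding transcript and of their sum (black squares) in the 7 Sham (S) and 8 HF-HI (H) libraries, for Zfp260, Zfp292 and Zfp644. Transcripts of a gene move against each other, except for 1 pair of Zfp644 (r of 0.284). The sums stay within a narrow band, 506 to 594 for Zfp260.

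**Figure D5:**
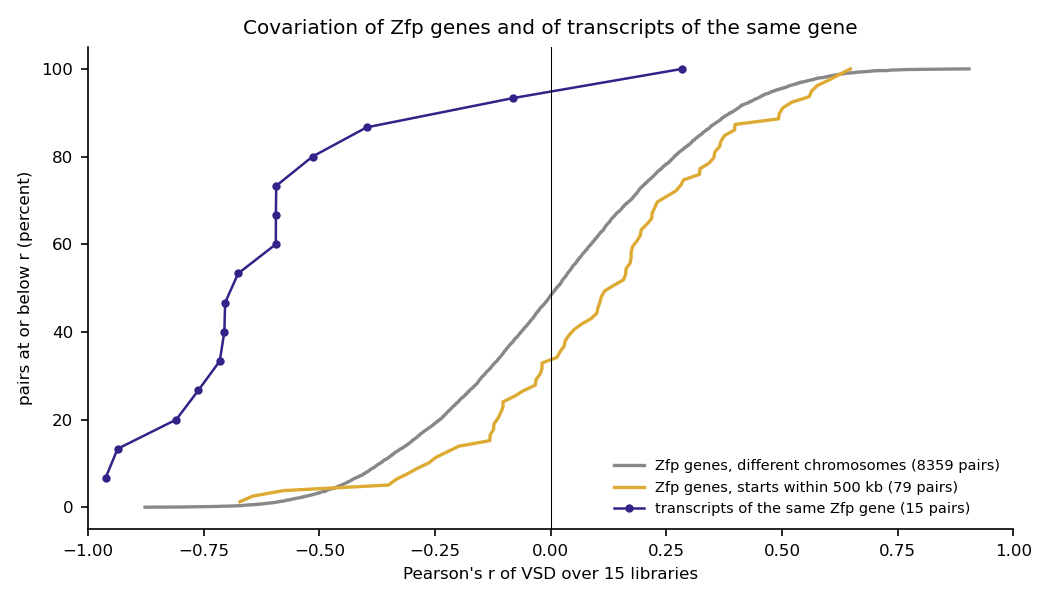
Share of pairs (vertical, percent) at or below each Pearson's r over the 15 libraries (horizontal), for Zfp gene pairs on different chromosomes (grey), with starts within 500 kb (yellow), and for pairs of transcripts of the same Zfp gene (blue points). The medians are 0.0126, 0.137 and -0.675.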

How the data were processed

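Per the study's methods and labels, the authors depleted ribosomal RNA, made stranded libraries, mapped them to mm10 with STAR and quantified Ensembl transcripts with eXpress, and they deposited DESeq2 variance-stabilized values on a log2 scale. The annotation release was not given in the sources used here. This scale compresses low values: 2 times as many normalized counts, starting from 200, moves it by 0.271. The transformation was inverted, and all values gave whole reads within 0.1 read, so size factors and normalized counts were recovered. The reads cover listed transcripts only.

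Each transcript was tested with limma 3.58.1 in R 4.3.3 (group as the only term, eBayes with trend, two-sided, Benjamini-Hochberg over 10370 transcripts). Genes were tested with voom on reads summed over all listed transcripts, 129 transcripts without an annotation entry counting as genes of their own. The fit used 7 Sham and 8 HF-HI libraries, and p-values measure only the spread between these samples. Whole-library depth is not known from the table.

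Named members were the 5 higher and 5 lower transcripts with the smallest p, the 5 highest and 3 lowest genes per kilobase, called members of the functional lists, the 3 highest and 3 lowest correlations, genes with several transcripts of which any was called, and called KRAB partners. A called KRAB partner is not reported here by name. Members and lists were chosen with earlier results of these data known.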

Additional observations from a re-analysis of the deposited data

Results flagged for a closer look

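Among the 50 groups of values checked (in each of Sham and HF-HI, the 16 called transcripts, the 8 named levels per kilobase and the share of reads in Zfp transcripts), 3 held a library set apart from the rest of its group. Chance sets apart about 1 in 20 groups. Zfp740 had 291 normalized counts in Sham replicate 7, where the other Sham libraries ranged from 227 to 249, and without that library its unadjusted limma p was 0.00044. The Zfp644 transcript ENSMUST00000112698 had 133 in Sham replicate 4, where the others ranged from 233 to 295, and without that library its unadjusted limma p was 0.0626. Zfp354c had 492.8 in Sham replicate 1, where the others ranged from 404 to 429, and without that library its unadjusted limma p was 0.0038.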

How the results depend on the processing

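Leaving out a library in turn gave 11 to 18 called Zfp transcripts, 13 to 18 called Zfp genes, 1 to 4 called KRAB partner transcripts (1 without Sham replicate 2 or HF-HI replicate 5 or 6, 2 without Sham replicate 3 or 5), 0 members at an adjusted p under 0.1, a median VSD difference of -0.00029 to 0.0039 and a median r of 0.0067 to 0.020. In the replicate block, over 7 numbers shared by the groups, 13 Zfp transcripts, 9 Zfp genes and 2 KRAB partner transcripts were called. Except for the transcripts without HF-HI replicate 2, the shares of all transcripts and genes called in these fits are not given here. Whether the counts of members move with the whole table can therefore not be told from them. Same-numbered libraries correlated at -0.138 to 0.0905 in their deviations from the group mean. These values cannot show whether the numbers mark a pairing, which the labels do not give. Among the 9 libraries with a size factor above 1 (6 Sham and 3 HF-HI, chosen after seeing the data), 7 Zfp transcripts (4.70%, against 5.22% of all transcripts) and 0 KRAB partners were called, and the median difference was 0.0072. The median was 0.0096 with the log2 size factor as a covariate and 0.015 by voom, which is on another log2 scale. The split of higher and lower calls, 8 and 8, was 8 and 3 with that covariate, 11 and 5 by voom and 7 and 4 among transcripts of at least 200 normalized counts, and the cause was not tested. Without the 4 libraries of high Ttr, also chosen after seeing the data, 1 KRAB partner was called, beside 6.53% of all transcripts. Other scalings, priors, weights, filters and biotypes kept all counts of calls within 1.5 times. No called transcript changed sign under any alternative. Counting error for the median member transcript was 5.54% to 9.53% by library, and it is larger for transcripts with fewer reads. This error limits what small differences can show.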
